A study of Callithrix jacchus with 4 samples.

Results

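Reactive astrocyte genes are genes that astrocytes, the star-shaped support cells of the brain, raise after injury, inflammation or disease. The set described here has 10 members named by gene symbol: GFAP, VIM, CD44, EMP1, STEAP4, SERPINA3, CHI3L1, TIMP1, CP and MAOB. The count table of the series lists 35108 genes, and 8 of the 10 members were found in it by symbol. SERPINA3 and CP were not matched and are not analysed here. All 8 matched members were among the 16385 genes that passed the filter on low counts. STEAP4 passed through the transgenic libraries alone, since neither wild-type library reached the filter's cutoff of 0.74 CPM (read counts scaled to library size), so that gene had to differ in order to be tested.

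The data are read counts per gene from RNA sequencing of frontal cortex of adult common marmosets (Callithrix jacchus). There were 4 libraries, 2 labelled with an APP transgene (female, per the labels) and 2 labelled wild type, with no sex given. The title of the series describes the transgenes as mutant and as driven by the human EF1α promoter, a promoter active in most cell types, so that expression was not aimed at neurons or glia. The labels do not state that each library is a different animal, and p-values therefore measure only the spread between these libraries. Total counts were 13462167 and 18932180 in transgenic libraries 1 and 2, and 12657323 and 13569838 in wild-type libraries 1 and 2.

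Astrocyte reactivity is a graded change of state. Cytokines of the interleukin-6 family act through the receptor subunit gp130 and the transcription factor STAT3, while interleukin-1 and tumour necrosis factor act through NF-κB. Reactive cells build up intermediate filaments, alter their contacts with the matrix, secrete protease inhibitors and acute-phase proteins, and can lose part of their transport and metabolic program. In Alzheimer's disease, reactive astrocytes surround amyloid plaques.

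No member passed the main test, edgeR's quasi-likelihood F-test with p adjusted over all 16385 genes (threshold 0.05), in which 0 genes were called (0% of those tested). The smallest adjusted p over all genes was 0.075, and those of the members lay between 0.79 and 0.98. At an unadjusted p under 0.05 there were 4 of 8 members, all higher in the transgenic libraries, where 3.23% of all genes were higher at that level. The same 4 genes, CD44, EMP1, STEAP4 and MAOB, had both transgenic libraries above both wild-type libraries, as did 19.5% of all genes tested. DESeq2 called STEAP4 as higher, beside 0.159% of all genes called in that direction, and limma-voom called no member and 0 genes. The unadjusted count, the count without overlap and the DESeq2 call all include STEAP4, which passed the filter through the transgenic libraries alone. That gene had to differ in order to be tested, so its part in these results is no evidence of a difference. The fitted log2 fold change (transgenic over wild type) was above 0 for 7 of the 8 members, against 49.6% of all genes. The median over the members was 1.47 (0.68 over the 7 members without STEAP4) and the median over all genes was -0.0022.

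**Figure D1:**
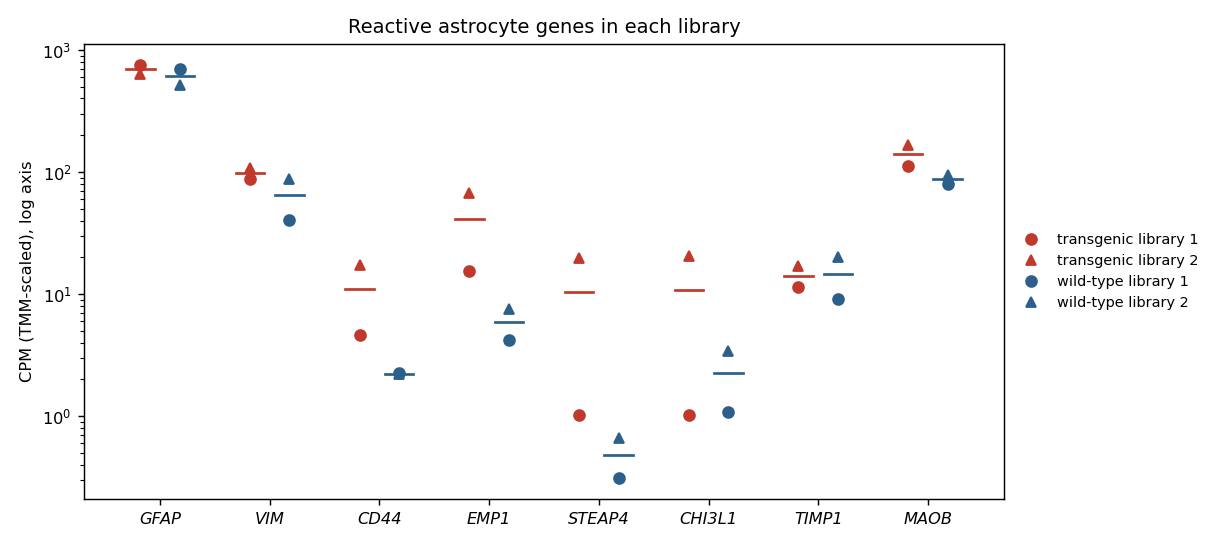
Level of each of the 8 matched genes in each library, in CPM (TMM-scaled) on a log axis, with transgenic libraries in red, wild-type libraries in blue and a line at each group mean. CD44, EMP1, STEAP4 and MAOB show no overlap between the groups, and transgenic library 2 is the highest library for 6 of the 8 genes.

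Transgenic library 2 held the highest value for 6 of the 8 members, against 35.1% of all genes. It lay above both wild-type libraries for 6 members (39.9% of all genes) and transgenic library 1 for 5 members (34.4% of all genes). Leaving out transgenic library 2 gave a median log2 fold change of 0.40 over the members, and leaving out transgenic library 1 gave 1.94. Without transgenic library 1, edgeR called 5 of 8 members as higher (CD44, EMP1, STEAP4, CHI3L1 and MAOB), beside 4.52% of all genes. Without transgenic library 2 it called no member, beside 0.0175% of all genes in that direction. Each of those fits leaves a single transgenic library, which is assumed to vary like the wild-type pair. Neither wild-type library reached the filter's cutoff for STEAP4, so its call without transgenic library 1 is no evidence of a difference. Over all alternatives, the adjusted p of each of these 5 genes ran from its value without transgenic library 1 to nearly 1.

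**Figure D2:**
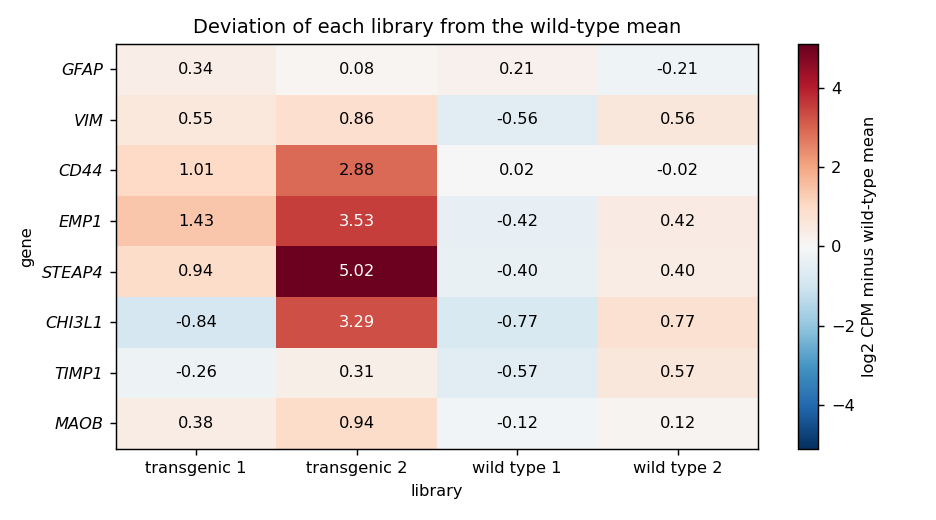
Deviation of each library from the wild-type mean for the 8 matched genes, in log2 CPM with a prior count of 2. STEAP4, EMP1, CHI3L1 and CD44 in transgenic library 2 stand 5.02, 3.53, 3.29 and 2.88 above the wild-type mean, while GFAP and TIMP1 are at most 0.57 from it in every library.

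The intermediate filament genes come first. GFAP encodes the filament protein by which astrocytes are usually stained, and it was the most abundant member by counts, with 60.4% to 83.5% of the members' summed CPM in each library. It was at 757 and 635 CPM in transgenic libraries 1 and 2, and at 695 and 517 CPM in wild-type libraries 1 and 2. The groups overlapped, since wild-type library 1 lay above transgenic library 2. The log2 fold change was 0.20 ± 0.20 (SE, 2 libraries per group), with an adjusted p of 0.83 in edgeR. VIM encodes vimentin, a filament protein of the same type that is also made by endothelial cells, fibroblasts and microglia.

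VIM was at 87.5 and 109 CPM in the transgenic libraries, and at 40.5 and 88.2 CPM in the wild-type libraries. The values of transgenic library 1 and wild-type library 2 were nearly equal, and wild-type library 1 was the low one. The log2 fold change of 0.61 ± 0.37 had an adjusted p of 0.79 in edgeR. It was 1.28 without wild-type library 2 and 0.15 without wild-type library 1, so the choice of wild-type library set its size. Markers of fibroblasts and meninges also differed within groups, with 14 of 14 in the table and summed levels of 398 and 133 CPM in the transgenic libraries and 177 and 274 CPM in the wild-type libraries. Their part in the values of VIM was not tested.

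Among 12 tested genes of the filament network and its cytoskeletal partners, 0 passed edgeR's adjusted threshold, 7 were higher in sign and the median log2 fold change was 0.048 (-0.033 leaving out transgenic library 2, 0.15 leaving out transgenic library 1). NES, the gene of the filament protein nestin found in neural progenitors and some reactive astrocytes, was at 11.7 and 4.98 CPM in the transgenic libraries, and at 24.7 and 15.7 CPM in the wild-type libraries. Both transgenic values were below both wild-type values (log2 fold change -1.28 ± 0.47; unadjusted p = 0.038 and adjusted p = 0.79 in edgeR). LMNA, which encodes the nuclear lamins A and C, was at 22.8 and 39.9 CPM in the transgenic libraries and at 15.01 and 16.7 CPM in the wild-type libraries (adjusted p = 0.79 in edgeR). MSN, the gene of moesin, which links CD44 to actin, was at 50.05 and 118 CPM in the transgenic libraries and at 50.4 and 46.6 CPM in the wild-type libraries, so that transgenic library 2 alone stood apart.

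Of the members with products in the membrane, CD44 is the receptor for hyaluronan, the sugar polymer of the brain's extracellular matrix, and is found on reactive astrocytes and on leukocytes. It was at 4.63 and 17.3 CPM in the transgenic libraries, and at 2.24 and 2.19 CPM in the wild-type libraries. The wild-type pair was nearly identical and both transgenic libraries were above it. The exact Poisson 95% interval of transgenic library 1 (63 counts) was 3.56 to 5.92 CPM, and that of wild-type library 1 (29 counts) was 1.503 to 3.22 CPM. These intervals cover counting error only and did not overlap.

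The fitted log2 fold change of CD44 was 2.31 ± 0.66, a 4.94-fold higher level in the transgenic group (unadjusted p = 0.016 and adjusted p = 0.79 in edgeR, adjusted p = 0.16 in DESeq2). Leaving out transgenic library 2 gave 1.05, and leaving out transgenic library 1 gave 2.96 (adjusted p = 0.00073 in edgeR). Of 12 tested genes of hyaluronan synthesis, turnover and CD44 partners, 0 passed the adjusted threshold, 6 were higher and 6 lower in sign, and the median was 0.063 (0.19 leaving out transgenic library 2, -0.14 leaving out transgenic library 1). TNC, the gene of tenascin-C, a matrix glycoprotein, was at 1.91 and 10.02 CPM in the transgenic libraries, and at 0.54 and 0.80 CPM in the wild-type libraries. This gave a log2 fold change of 3.14 ± 0.89, with an unadjusted p of 0.015 and an adjusted p of 0.79 in edgeR.

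HAS2, a hyaluronan synthase gene, was at 1.18 and 2.88 CPM in the transgenic libraries, and at 1.08 and 0.37 CPM in the wild-type libraries. HMMR, a hyaluronan-binding protein of dividing cells, was at 16.8 and 16.3 CPM in the transgenic libraries, and at 24.1 and 23.8 CPM in the wild-type libraries. HMMR alone in that list was lower at an unadjusted p under the threshold in edgeR (0.024, adjusted p = 0.79), and its libraries were close within each group.

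EMP1 encodes a small tetraspan membrane protein of the PMP22 family, and in the mouse it belongs to the genes raised in astrocytes after ischaemia. It was at 15.5 and 67.0 CPM in the transgenic libraries, and at 4.18 and 7.61 CPM in the wild-type libraries. The lower transgenic library was above the higher wild-type library. The log2 fold change was 2.81 ± 0.75, or 7.00-fold (unadjusted p = 0.012 and adjusted p = 0.79 in edgeR, adjusted p = 0.50 in DESeq2), and 99.8% of all genes tested had a lower one. Leaving out transgenic library 2 gave 1.39 (adjusted p = 0.72), and leaving out transgenic library 1 gave 3.50 (adjusted p = 0.00052).

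The relatives of EMP1 were lower in sign, and at the list median most of the difference was in transgenic library 2. Of 4 tested genes (EMP2, EMP3, PMP22 and TMEM47), 0 passed the adjusted threshold and all 4 had a negative log2 fold change, with a median of -0.29 (-0.027 leaving out transgenic library 2, -0.62 leaving out transgenic library 1). EMP2 was at 39.7 and 32.3 CPM in the transgenic libraries, and at 49.1 and 38.7 CPM in the wild-type libraries. EMP3 was at 3.97 and 4.54 CPM in the transgenic libraries, and at 5.49 and 4.90 CPM in the wild-type libraries. In EMP3 the lowest library was thus transgenic library 1. TMEM47 was at 115 and 51.5 CPM in the transgenic libraries, and at 104 and 111 CPM in the wild-type libraries. The differences between EMP1 and its relatives were not tested.

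STEAP4 encodes a metalloreductase that turns ferric iron and cupric copper into the forms that cells take up, and it is induced by inflammatory cytokines. It had 14 and 356 counts in the transgenic libraries (1.03 and 19.7 CPM), against 4 and 9 counts (0.31 and 0.66 CPM) in the wild-type libraries. Transgenic library 2 was 19.2 times transgenic library 1. The 95% counting interval of transgenic library 1, 0.56 to 1.73 CPM, overlapped that of wild-type library 2, 0.30 to 1.25 CPM, so the separation of these 2 libraries was within counting error.

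The fitted log2 fold change of STEAP4 was 4.40 ± 1.45 (unadjusted p = 0.027 and adjusted p = 0.79 in edgeR, adjusted p = 0.044 in DESeq2). Without transgenic library 2 it was 1.06 (adjusted p = 0.97 in edgeR), and without transgenic library 1 it was 5.31 (adjusted p = 0.00026). Among 13 tested partners in iron and copper handling, 0 passed the adjusted threshold, 7 were higher and 6 lower in sign, and the median was 0.014 (0.0035 leaving out transgenic library 2, -0.23 leaving out transgenic library 1). STEAP2, a metalloreductase of the same family, was at 105 and 101 CPM in the transgenic libraries, and at 126 and 141 CPM in the wild-type libraries (log2 fold change -0.37 ± 0.13). FTL, the light chain of the iron store ferritin, was at 606 and 439 CPM in the transgenic libraries, and at 996 and 740 CPM in the wild-type libraries (log2 fold change -0.73 ± 0.24). In both genes the groups did not overlap, at an unadjusted p of 0.029 for STEAP2 and 0.025 for FTL in edgeR (adjusted p = 0.79 for each).

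HMOX1, the haem-degrading enzyme that frees iron, was at 4.34 and 11.6 CPM in the transgenic libraries, and at 3.64 and 2.93 CPM in the wild-type libraries. Its log2 fold change of 1.28 ± 0.52 did not pass (adjusted p = 0.79 in edgeR), and the excess of transgenic library 1 over wild-type library 1 was small.

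Of the members with secreted products, CHI3L1 encodes a chitinase-like glycoprotein that astrocytes release and that is measured in cerebrospinal fluid as a sign of glial activation. It had 14 and 370 counts in the transgenic libraries (1.03 and 20.5 CPM), against 14 and 47 counts (1.08 and 3.44 CPM) in the wild-type libraries. Transgenic library 1 was at the level of wild-type library 1 and below wild-type library 2, so the groups overlapped. The ratio of transgenic library 2 to transgenic library 1 was 19.9, larger in log2 than that of 99.9% of all genes tested. The log2 fold change was 2.25 ± 1.31 (adjusted p = 0.79 in edgeR), and without transgenic library 2 its sign turned, to -1.14 (adjusted p = 0.97 in edgeR). Without transgenic library 1 it was 3.16 (adjusted p = 0.0067 in edgeR).

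TIMP1 encodes a secreted inhibitor of matrix metalloproteinases. It was at 11.3 and 16.8 CPM in the transgenic libraries, and at 9.05 and 20.3 CPM in the wild-type libraries. Both transgenic values lay between the 2 wild-type values. The log2 fold change was -0.057 ± 0.43 (adjusted p = 0.98 in edgeR), and its sign turned under limma-voom (0.042), with the replicate number as a block (0.020), without wild-type library 2 (0.64) and without transgenic library 1 (0.20). Among 13 tested metalloproteinases and other TIMPs, 0 passed the adjusted threshold, 8 were higher and 5 lower in sign, and the median was 0.22.

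ADAMTS1 and ADAMTS4, which encode proteases that cut matrix proteoglycans, were among the 3 genes of that list with the smallest p. ADAMTS1 was at 13.8 and 75.2 CPM in the transgenic libraries, and at 5.80 and 17.8 CPM in the wild-type libraries. ADAMTS4 was at 8.97 and 29.8 CPM in the transgenic libraries, and at 8.28 and 6.22 CPM in the wild-type libraries. Both were highest in transgenic library 2, and neither passed (adjusted p = 0.79 each in edgeR). MMP16, a membrane-bound metalloproteinase, was at 30.1 and 24.1 CPM in the transgenic libraries, and at 18.2 and 22.4 CPM in the wild-type libraries.

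SERPINA3, the unmatched member, is a secreted inhibitor of serine proteases. Among 8 tested serpins and chitinase-like relatives of CHI3L1, 0 passed the adjusted threshold, 5 were higher in sign and the median was 0.47 (0.17 leaving out transgenic library 2, 0.36 leaving out transgenic library 1). SERPINB9, an intracellular inhibitor of granzyme B, was at 7.86 and 38.5 CPM in the transgenic libraries, and at 6.65 and 3.73 CPM in the wild-type libraries (log2 fold change 2.17 ± 0.78; unadjusted p = 0.037 and adjusted p = 0.79 in edgeR). SERPINI1, the neuronal serpin, was at 418 and 636 CPM in the transgenic libraries, and at 355 and 428 CPM in the wild-type libraries. SERPINB9 had a clear excess of transgenic library 2 over the other 3 libraries.

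MAOB encodes a mitochondrial enzyme that oxidizes monoamines, found in the brain mainly in astrocytes and serotonergic neurons. It was at 113 and 167 CPM in the transgenic libraries, and at 79.9 and 94.6 CPM in the wild-type libraries. Both transgenic libraries were above both wild-type libraries, and the step was smaller than in CD44 or EMP1. The log2 fold change was 0.68 ± 0.22, or 1.60-fold (unadjusted p = 0.025 and adjusted p = 0.79 in edgeR, adjusted p = 0.52 in DESeq2). Leaving out transgenic library 2 gave 0.37, and leaving out transgenic library 1 gave 0.93 (adjusted p = 0.0093 in edgeR).

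Other enzymes of monoamine breakdown were lower in sign in all 4 tested genes, with 0 past the adjusted threshold and a median of -0.54 (-0.048 leaving out transgenic library 2, -0.93 leaving out transgenic library 1). MAOA, the paralogue of MAOB, was at 47.2 and 29.3 CPM in the transgenic libraries, and at 49.98 and 44.7 CPM in the wild-type libraries. ALDH2, which clears the aldehydes that monoamine oxidases make, was at 197 and 130 CPM in the transgenic libraries, and at 369 and 215 CPM in the wild-type libraries (unadjusted p = 0.045 and adjusted p = 0.79 in edgeR). ALDH1A1 was at 35.4 and 8.92 CPM in the transgenic libraries, and at 37.1 and 38.1 CPM in the wild-type libraries. MAOB and TIMP1 lie on the X chromosome in primates, as does MAOA. The Y-linked gene KDM5D had 0 counts in each transgenic library, against 2 and 243 counts in the wild-type pair. The wild-type pair differed in this marker, and the part of sex in these values was not tested.

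The members were next set against genes of resting astrocytes in the same libraries. All 18 homeostatic astrocyte markers were in the table and tested, all 18 had a negative log2 fold change, and 0 passed the adjusted threshold. Their median was -0.78 (-0.10 leaving out transgenic library 2, -2.23 leaving out transgenic library 1). Their summed level was 13144 and 4363 CPM in the transgenic libraries, and 15324 and 12878 CPM in the wild-type libraries. On this sum, transgenic library 1 fell within the range of the wild-type pair, and transgenic library 2 was far below the other 3. Gene by gene, both transgenic libraries were below both wild-type libraries for 9 of the 18, as for 19.4% of all genes tested. SLC1A2, the main glutamate transporter of astrocytes, was at 4337 and 999 CPM in the transgenic libraries, and at 4921 and 4173 CPM in the wild-type libraries. GLUL, glutamine synthetase, was at 3388 and 1659 CPM in the transgenic libraries, and at 3912 and 3230 CPM in the wild-type libraries. In bulk tissue, fewer cells of a type and less RNA per cell cannot be told apart.

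GFAP differed from these markers in transgenic library 2, where it was 0.082 above its wild-type mean in log2 while the markers had a median of -2.23. As a share of the summed homeostatic markers, GFAP was 5.76% and 14.5% in the transgenic libraries, and 4.54% and 4.01% in the wild-type libraries. MAOB was 0.86% and 3.82% in the transgenic libraries, and 0.52% and 0.73% in the wild-type libraries. EMP1 was 0.12% and 1.54% in the transgenic libraries, and 0.027% and 0.059% in the wild-type libraries. On this scale, chosen after the data were seen, 5 of 8 members had both transgenic libraries above both wild-type libraries, as did 38.3% of all genes. GFAP was the member that joined the 4 named above, which include STEAP4, a gene tested through the transgenic libraries alone. TIMP1, VIM and CHI3L1 still overlapped.

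**Figure D3:**
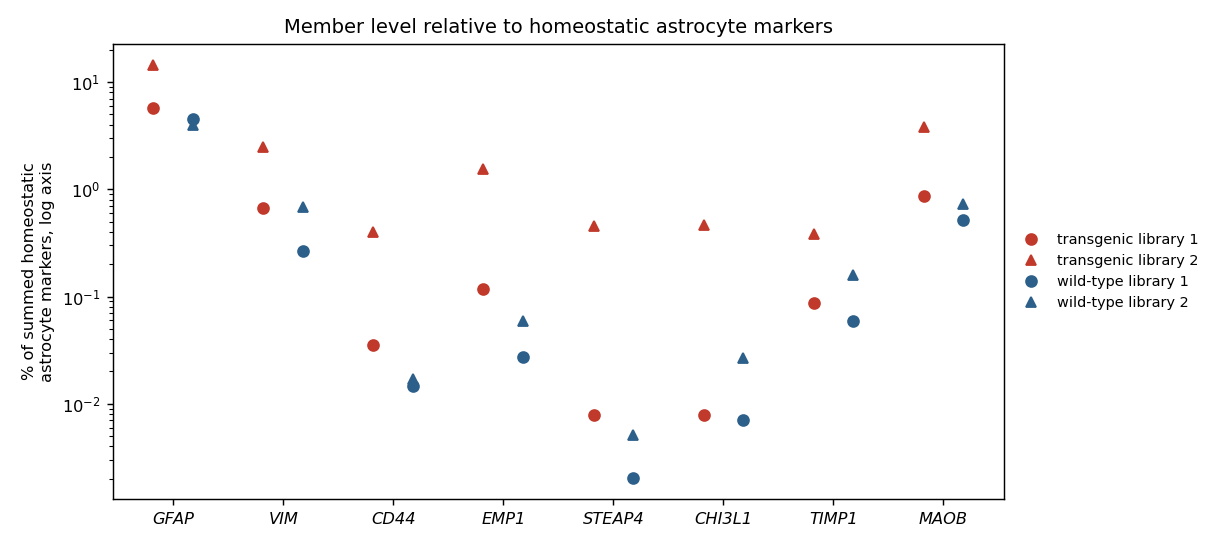
Level of each matched gene as a percentage of the summed CPM of 18 homeostatic astrocyte markers in the same library, on a log axis. GFAP stands at 14.5% in transgenic library 2 and between 4.01% and 5.76% in the other libraries.

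Some markers of blood leukocytes, which can express members such as CD44, were also high in transgenic library 2. The 13 blood leukocyte markers summed to 20.4 and 289 CPM in the transgenic libraries, and to 29.7 and 24.9 CPM in the wild-type libraries, and 5 of them could be tested. S100A9, a calcium-binding protein of neutrophils and monocytes, was at 0.22 and 205 CPM in the transgenic libraries, and at 0.77 and 0.59 CPM in the wild-type libraries. PTPRC, the leukocyte antigen CD45, was at 4.92 and 25.4 CPM in the transgenic libraries, and at 8.12 and 7.39 CPM in the wild-type libraries. LYZ, the lysozyme gene, went the other way, at 11.0 and 4.65 CPM in the transgenic libraries, and at 14.9 and 11.3 CPM in the wild-type libraries. The T cell genes CD3D and CD3E and the B cell gene MS4A1, chosen after their values were seen, had 0 counts in transgenic library 2. The part of leukocytes in the values of CD44, CHI3L1 and STEAP4 was not tested.

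Microglia and macrophage markers summed to 171 and 142 CPM in the transgenic libraries, and to 257 and 312 CPM in the wild-type libraries (15 of 15 tested, 11 lower in sign). Endothelial markers summed to 282 and 225 CPM in the transgenic libraries, and to 437 and 313 CPM in the wild-type libraries (12 of 12 tested, 10 lower in sign). Both sums were lower in each transgenic library than in either wild-type library. Pericyte and smooth muscle markers summed to between 221 and 227 CPM in the transgenic libraries, and to between 222 and 234 CPM in the wild-type libraries. Their sums were close, but 7 of the 8 tested were lower in sign. Their median log2 fold change was -0.44 (-0.028 leaving out transgenic library 2, -1.07 leaving out transgenic library 1). Neuronal markers, which check the tissue, summed to 14428 and 16906 CPM in the transgenic libraries, and to 14960 and 15585 CPM in the wild-type libraries. Choroid plexus and ependymal markers stayed at or below 15.2 CPM in every library. Oligodendrocyte markers summed to 3360 and 1236 CPM in the transgenic libraries, and to 3399 and 2690 CPM in the wild-type libraries.

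**Figure D4:**
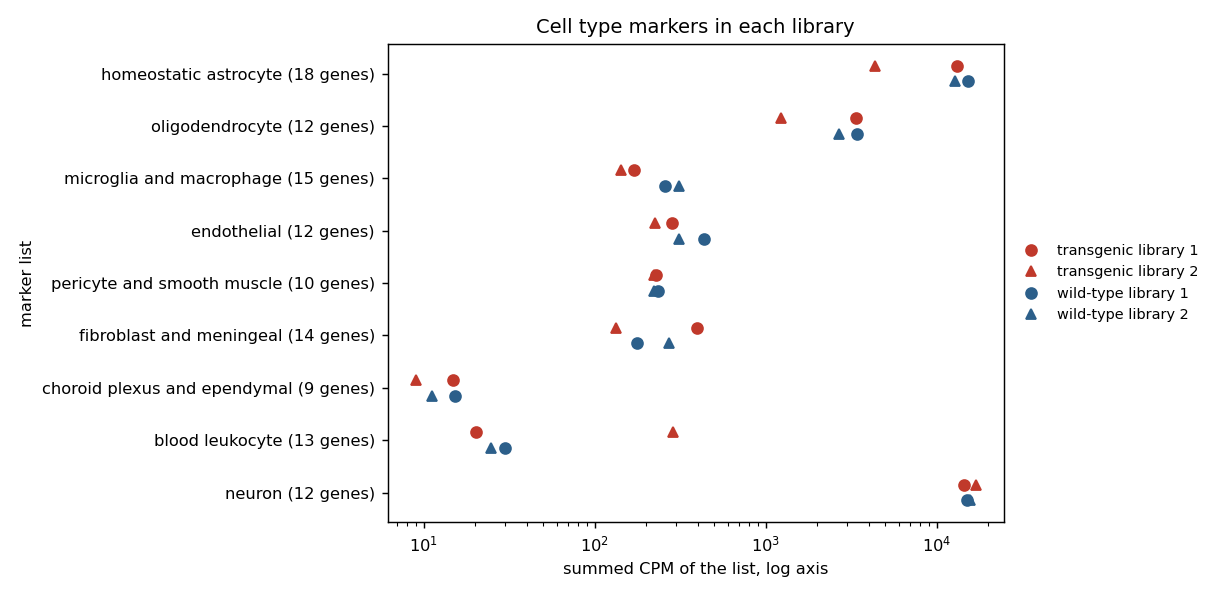
Summed CPM of 9 cell type marker lists in each library, on a log axis, with transgenic libraries in red and wild-type libraries in blue. Transgenic library 2 has the lowest homeostatic astrocyte and oligodendrocyte sums and the highest blood leukocyte sum, while the neuronal sums lie close together.

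Among the ligands of astrocyte reactivity, 16 of 16 were in the table and 10 could be tested, of which 0 passed and 5 were higher in sign. The median was -0.010 (-0.031 leaving out transgenic library 2, 0.21 leaving out transgenic library 1). IL1B, the gene of interleukin-1β, was at 0.37 and 52.9 CPM in the transgenic libraries, and at 0.77 and 1.10 CPM in the wild-type libraries (log2 fold change 4.82 ± 1.94; adjusted p = 0.79 in edgeR). IL6, chosen after its values were seen and too low in 3 libraries to be tested, had 0 and 320 counts in the transgenic libraries, against 0 and 1 counts in wild type. Both cytokines were thus found at more than trace counts in transgenic library 2 alone. LIF, IL1A and TNF were untested too and are named after their values were seen. They had 157, 144 and 270 counts in transgenic library 2, and at most 5 in any other library. The other untested ligands, OSM and IL11, had at most 3 counts in any library. The median of -0.010 covers the 10 tested ligands only and leaves all of these out. The medians leaving out a library come from fits that filtered the genes anew, so some of these ligands can enter them. Over the 10 tested ligands, the median deviation of transgenic library 2 from the wild-type mean was -0.055 in log2 CPM. EDN1, the endothelin-1 gene, was at 1.98 and 14.5 CPM in the transgenic libraries, and at 5.18 and 1.97 CPM in the wild-type libraries. FGF2 was at 23.0 and 10.4 CPM in the transgenic libraries, and at 22.5 and 20.8 CPM in the wild-type libraries.

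Of 17 tested receptors and JAK-STAT genes, 0 passed the adjusted threshold, 11 were higher in sign and the median was 0.23 (0.033 leaving out transgenic library 2, 0.37 leaving out transgenic library 1). OSMR, the oncostatin M receptor subunit that pairs with gp130, was at 3.09 and 9.41 CPM in the transgenic libraries, and at 1.16 and 1.10 CPM in the wild-type libraries. Like CD44, it had a tight wild-type pair with both transgenic libraries above it (log2 fold change 2.47 ± 0.62; unadjusted p = 0.0093 and adjusted p = 0.79 in edgeR). SOCS3, the feedback inhibitor induced by STAT3, was at 1.40 and 34.4 CPM in the transgenic libraries, and at 1.32 and 1.32 CPM in the wild-type libraries. Transgenic library 1 was thus at the wild-type level for SOCS3, unlike for OSMR.

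Of 18 tested transcription factors of astrocytes and reactivity, 0 passed, 14 were higher in sign and the median was 0.22 (0.14 leaving out transgenic library 2, 0.18 leaving out transgenic library 1). CEBPD, a factor of the acute-phase response, was at 5.29 and 22.4 CPM in the transgenic libraries, and at 3.33 and 3.29 CPM in the wild-type libraries (log2 fold change 2.07 ± 0.69; unadjusted p = 0.028 and adjusted p = 0.79 in edgeR). NFKBIA, the NF-κB inhibitor that NF-κB itself induces, was at 19.0 and 130.02 CPM in the transgenic libraries, and at 31.1 and 20.04 CPM in the wild-type libraries. FOSL2 was at 115 and 99.6 CPM in the transgenic libraries, and at 75.8 and 94.1 CPM in the wild-type libraries. CEBPD and FOSL2 had no overlap between the groups, whereas NFKBIA in transgenic library 1 was below both wild-type libraries.

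The remaining reactive genes were put in lists made after classes defined in mouse astrocytes. These lists do not match the published classes gene for gene, and C3 is in both the pan-reactive and the neuroinflammation list. Of 10 tested genes of the pan-reactive list outside the set, 0 passed and 4 were higher in sign, with a median of -0.071. It was -0.16 leaving out transgenic library 2 and 0.64 leaving out transgenic library 1. Those fits filtered the genes anew, so genes untested with all libraries can enter their medians. Over the 10 tested genes, the median deviation of transgenic library 2 from the wild-type mean was 0.15 in log2 CPM. LCN2, CXCL10, ASPG and SLC10A6 were not tested, since too few libraries reached the filter's cutoff. Of these, named after their values were seen, LCN2 had 4 and 211 counts in the transgenic libraries, against 1 and 4 in wild type, and CXCL10 had 4 and 2551 counts in the transgenic libraries, against 3 and 3 in wild type. Both were high in transgenic library 2 alone. In that list OSMR, GAP43 and THBS1 had the smallest p. GAP43, a growth-associated protein made mostly by neurons, was at 256 and 371 CPM in the transgenic libraries, and at 222 and 236 CPM in the wild-type libraries. THBS1, the thrombospondin-1 gene, was at 3.90 and 15.7 CPM in the transgenic libraries, and at 3.17 and 4.10 CPM in the wild-type libraries.

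Of 8 tested genes of the neuroinflammation list, 0 passed, 5 were higher in sign and the median was 0.52 (0.21 leaving out transgenic library 2, 0.45 leaving out transgenic library 1). SERPING1, the inhibitor of complement C1, was at 14.8 and 19.6 CPM in the transgenic libraries, and at 9.05 and 9.73 CPM in the wild-type libraries. The groups did not overlap and transgenic library 1 was also clearly above the pair (log2 fold change 0.88 ± 0.23; unadjusted p = 0.012 and adjusted p = 0.79 in edgeR). CFB, complement factor B, was at 4.63 and 15.4 CPM in the transgenic libraries, and at 2.32 and 3.14 CPM in the wild-type libraries. AMIGO2 was at 15.3 and 8.75 CPM in the transgenic libraries, and at 8.12 and 7.83 CPM in the wild-type libraries.

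Of 11 tested genes of the injury list, made after the mouse class to which EMP1 belongs, 0 passed, 9 were higher in sign and the median was 0.92. Leaving out transgenic library 2 gave a median of 0.046, and leaving out transgenic library 1 gave 0.80. ANXA2, a membrane-binding annexin, was at 20.4 and 16.7 CPM in the transgenic libraries, and at 7.58 and 11.6 CPM in the wild-type libraries (log2 fold change 0.95 ± 0.28; unadjusted p = 0.018 and adjusted p = 0.79 in edgeR). Its excess was present in both transgenic libraries and was the larger in library 1. PTX3, a secreted pentraxin, was at 1.40 and 16.5 CPM in the transgenic libraries, and at 1.08 and 1.61 CPM in the wild-type libraries. CD14, a lipopolysaccharide co-receptor of myeloid cells, was at 5.37 and 139 CPM in the transgenic libraries, and at 5.88 and 8.995 CPM in the wild-type libraries.

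**Figure D5:**
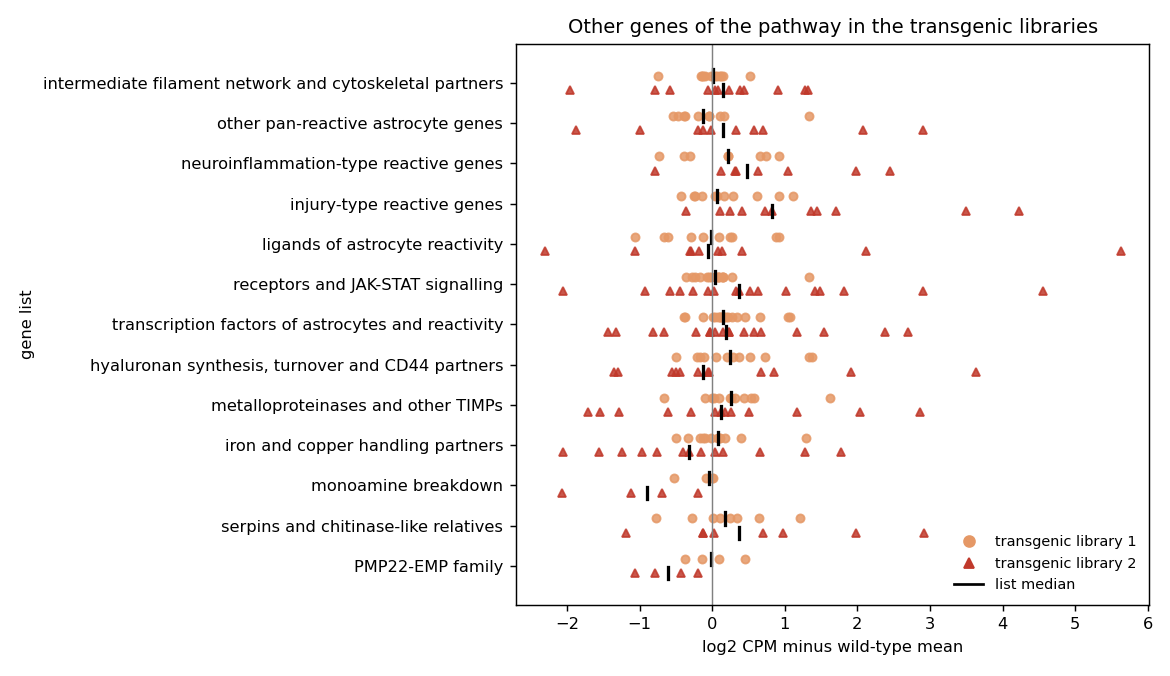
Deviation of transgenic libraries 1 (circles) and 2 (triangles) from the wild-type mean, in log2 CPM with a prior count of 2, for the tested genes of 13 lists of other genes of the pathway, with black bars at list medians. The spread is wider in library 2, and the median of the injury-type genes is 0.82 there and 0.066 in library 1.

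Over the 13 lists together, 137 distinct genes were tested. Both transgenic libraries lay above both wild-type libraries for 28 of them and below for 14, where 19.5% and 19.4% of all genes did so. Transgenic library 2 was the highest library for 54 of the 137 (39.4%), against 35.1% of all genes. Both shares cover tested genes only. Untested genes that were high in transgenic library 2 alone, such as CXCL10, IL6 and LCN2, are therefore not counted. The median log2 fold change was 0.13. APP, the gene of the transgene, was at 2143 and 2748 CPM in the transgenic libraries, and at 1822 and 2182 CPM in the wild-type libraries, with overlap between the groups. Whether reads of the transgene were counted on this gene is not known from the labels.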

How the data were processed

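The authors deposited raw read counts, as whole numbers for each gene symbol in each library. STAR 2.5.3a, featureCounts 1.5.2 and kallisto 0.46.2 are listed in the submitters' processing notes, with no role for each. The sources used here give no genome build, annotation or strandedness. Reads of overlapping or antisense genes may therefore be mixed, and no coordinates or sequences are printed. Groups follow the labels.

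Counts were analysed in R 4.3.3 with edgeR 4.0.16 (filterByExpr, TMM scaling, quasi-likelihood F-test, genotype as the only term, 2 residual degrees of freedom) and Benjamini-Hochberg adjustment over all 16385 genes kept. SE is the log2 fold change divided by the square root of F. CPM uses TMM-scaled totals, and 3 counts correspond to 0.17 to 0.23 CPM. An exact permutation test of 2 against 2 libraries cannot go below 0.33 and was not used. Alternatives were DESeq2 1.42.0, limma-voom (limma 3.58.1), other scalings and filters, a replicate block and leaving out each library. Fits that left out a library filtered the genes anew, so their list medians can include genes not tested with all libraries. Steps were tested on simulated data. Every pair of libraries differed beyond sampling noise (chi-square divided by its degrees of freedom was 7.62 to 48.1).

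The members and lists were chosen with earlier results of these data known. Besides the members, the genes named are the 3 of each pathway list with the smallest p and a mean count of at least 20, the 3 most abundant genes of marker lists, APP and KDM5D; others are said to be chosen after their values were seen. The results of some genes that met this rule are not reported here.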

Additional observations from a re-analysis of the deposited data

How the results depend on the processing

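No gene passed the threshold of 0.05 with RLE scaling, library totals without scaling, a minimum mean count of 50 or limma-voom, while 5 genes were called with no filter on low counts and 48 with DESeq2, and from 0 to 1710 when a library was left out. The members' median log2 fold change ranged from 0.40 to 1.94 when a library was left out. The count of members with the transgenic libraries above the wild-type libraries was 4 with all libraries and 5 to 6 when one was left out. Leaving out a library can only keep or raise this count, and the share over all genes was not computed for these sets, so the rise shows nothing about the members. The sign of TIMP1 turned with limma-voom (0.042), with the replicate number as a block (0.020) and with the block's numbers crossed (0.022), and ran from -0.53 to 0.64 when a library was left out, while CHI3L1 ran from -1.14 to 3.31. The cause was not tested. The other 84 member values kept their direction and their side of the threshold, and 6 passed it: STEAP4 with DESeq2, and CD44, EMP1, STEAP4, CHI3L1 and MAOB without transgenic library 1. The labels give both groups the numbers 1 and 2 without stating a pairing. Deviations of same-numbered libraries had r = -0.13 across genes. The replicate block called 0 genes (members' median 1.10), and the crossed block, added after the data were seen, called 0 (median 1.03). Depth limits STEAP4 and CHI3L1, which had 14 counts or fewer in at least 2 libraries each.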

Other observations

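Genes of radial glia and of the GFAP-rich astrocytes that send long processes through the upper layers of primate cortex form a further list, which shares NES, TNC and SOX2 with the lists above. All 10 were tested, 0 passed edgeR's adjusted threshold (3 had an unadjusted p under 0.05, TNC and ID3 higher and NES lower; ID3 was named after its values were seen), and the median log2 fold change was -0.13 (0.50 leaving out transgenic library 2, -1.06 leaving out transgenic library 1). In log2 CPM, transgenic library 1 stood 0.50 above the wild-type mean at the list median, and transgenic library 2 stood at -1.04. SOX2, a factor of neural stem cells that astrocytes keep, was at 108 and 34.1 CPM in the transgenic libraries, and at 84.3 and 87.0 CPM in the wild-type libraries. FABP7, a fatty acid-binding protein of radial glia and astrocytes, was at 205 and 82.0 CPM in the transgenic libraries, and at 223 and 148 CPM in the wild-type libraries. HOPX was at 126 and 115 CPM in the transgenic libraries, and at 200.2 and 89.5 CPM in the wild-type libraries. SOX2 and FABP7 were thus lowest in transgenic library 2, as the homeostatic astrocyte markers were, and HOPX overlapped between the groups.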
